A study of Mus musculus with 6 samples.

Results

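The splicing events described here are 5 exon choices in Src, Ephb2, Ncam1, Nrcam and Scrib, genes of cell adhesion, of signalling at contacts between cells and of the cortex of polarised cells. The members were chosen by being listed. They are the entries of the deposited event lists that lay within the locus of one of these genes and matched its exon edges, 5 of 643 distinct events in all and 7 of 791 listings (0.885%). No other entry fell within the 5 loci. RNA came from P19 cells, a mouse embryonal carcinoma line that can be turned into neuron-like cells, in 3 control samples and 3 samples with Sfpq, a nuclear RNA-binding protein first described as a splicing factor, knocked down by transfected siRNA pools. All 6 samples were transfected cells of this 1 line. The entries are grouped into 3 lists, numbered by replicate, of events that differed between knockdown and control.

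The lists give the position and type of an event and nothing on its size. No read count, inclusion level or direction comes with an entry, so whether the knockdown raised or lowered the use of any exon below cannot be told, the depth behind each entry is unknown, and no error can be given. Neither the knockdown nor any marker of the cells can be checked from event positions. A gene or exon that was not listed is only that, since no source used here gives the threshold for listing. The lists take the place of replicates, and no source says that the samples were separate cultures, so what the lists share may be technical.

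Adhesion proteins of the immunoglobulin superfamily, such as those made by Ncam1 and Nrcam, bind their partners on neighbouring cells and carry neurite growth and the assembly of contacts. Eph receptors are tyrosine kinases that read ephrins on the next cell and steer migrating cells and axons. Src is a tyrosine kinase of the inner membrane face that acts behind both kinds of receptor. Scrib is a scaffold of leucine-rich repeats and PDZ domains that sets apical and basal sides and gathers proteins at junctions and synapses. Neurons splice many such genes in their own way, often through very short exons that add a few residues without shifting the reading frame, and the neural exon of Src is a textbook example, held back outside neurons by the polypyrimidine tract-binding protein Ptbp1.

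The bases at stake in Src, Ephb2, Ncam1 and Nrcam are printed first because each of these choices turns on few of them. Each line runs 5′ to 3′ along the spliced transcript, read from the GENCODE M21 transcript sequences (GRCm38, the assembly of mm10), with 30 nt on either side in lower case and the optional bases in capitals. Without the capitals, the same line is the shorter form.
Src: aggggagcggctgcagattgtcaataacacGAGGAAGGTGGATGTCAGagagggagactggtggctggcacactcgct
Ephb2: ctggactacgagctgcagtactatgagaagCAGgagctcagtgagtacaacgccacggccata
Ncam1: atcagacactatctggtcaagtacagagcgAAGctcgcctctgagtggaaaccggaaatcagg
Nrcam: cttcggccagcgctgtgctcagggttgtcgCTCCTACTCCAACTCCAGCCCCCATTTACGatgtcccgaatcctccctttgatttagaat

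Src, Nrcam and Scrib were listed for a cassette exon, which is kept or skipped whole, and Ephb2 and Ncam1 for an alternative acceptor, where an exon starts at either of a pair of sites. The Src exon stood in lists 1 and 3 and was not in list 2. The Ephb2 acceptor stood in lists 1 and 2 and was not in list 3. The Ncam1 acceptor stood in list 2 alone, and the Nrcam and Scrib exons stood in list 3 alone. List 1 thus held 2 of the events, list 2 held 2 and list 3 held 3, and 0 of the 5 were in all lists. Of all 643 distinct events, 126 (19.6%) were in at least 2 lists, beside 2 of these 5. Listing was also the rule by which the genes were chosen, and 578 of the 20684 protein-coding genes with more than 1 exon (2.79%) had an entry in any list, so nothing is read from their presence. List 3 decided most, as 3 of the 5 events were found without it.

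**Figure D1:**
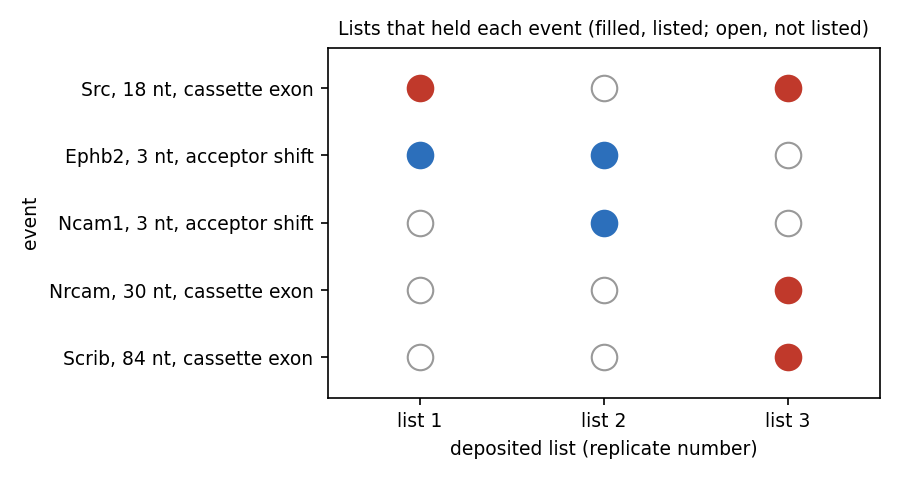
Presence of the 5 events (rows, with length and type) in the 3 deposited lists (columns); filled circles mark a listed event, red for cassette exons and blue for acceptor shifts, and open circles an event that was not listed. Src and Ephb2 have 2 filled circles each and the others 1, and no row is filled in all 3 columns.

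The kinase gene came with its neural exon. The Src event was a cassette exon of 18 nt at chr2:157458843-157458860 (mm10, plus strand), exon 6 of 15 in the transcript Src-202 and wholly coding. It lay close behind its upstream neighbour, with an intron of 209 nt before it and one of 3849 nt after it. Among the 391 listed cassette exons whose introns could be read from a protein-coding transcript, 35 (8.95%) had a shorter upstream intron, and the median was 1994 nt. A downstream intron shorter than that of Src was found in 257 of the 391 (65.7%). The exon began within codon 116 and ended within codon 122 of a protein of 541 residues, in the SH3 domain, the part of Src that grips proline-rich partners. It adds 6 residues, replaces none of the residues beside it and puts no stop codon in the frame. The residues fall in the loop of the SH3 domain known as the n-Src loop, and this form of the protein is known as the neuronal one.

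Of the 8 annotated Src transcripts 2 carried the exon and 3 joined its neighbours without it. The coding sequences of these 3, Src-201 among them, differed from that of Src-202 by the 18 nt alone. Annotated alternatives were counted here and below as cassette exons and acceptor pairs only, with donor choices, retained introns and alternative first or last exons left out. Src had 4 others, namely cassette exons of 108, 106 and 77 nt and an acceptor shift of 4 nt, all outside the coding sequence, and none of them was listed.

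Ephb2, which makes a receptor for membrane-bound ephrins of the B class, was listed for a single codon. The event covered 3 nt at chr4:136675531-136675533 (minus strand) at the start of exon 7 of 16, which is 166 nt long from the first acceptor and 163 nt from the second. The optional bases read CAG and stood in the frame as codon 477 of 987, in the extracellular part of the receptor. The transcripts Ephb2-201 and Ephb2-202 had coding sequences that differed by this codon alone. Ephb2 had 1 other annotated alternative, a second pair of acceptors 3 nt apart at chr4:136672508-136672510, and it was not listed. Its optional bases are AAG, and it lies just behind the membrane-spanning segment, on the cytoplasmic side. The next line gives the bases around it, with no domain marked.
Ephb2, second pair, not listed: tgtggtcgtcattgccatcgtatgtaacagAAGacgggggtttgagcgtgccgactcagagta

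The adhesion gene Ncam1 was listed for a choice of the same size. The event covered 3 nt at chr9:49520213-49520215 (minus strand) at the start of exon 15 of 18, which measures 181 nt or 178 nt. The optional bases read AAG and formed codon 642 of 849, in the extracellular part. The coding sequence of Ncam1-204 was that of Ncam1-202 without this codon. Only 1 transcript, Ncam1-202, used the first of the acceptors, and 3 used the second.

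Ncam1 is better known for other exon choices, and those were not in the lists. Among its 6 unlisted alternatives were the 30-nt exon known as VASE, in an immunoglobulin domain, and the 801-nt exon that lengthens the cytoplasmic tail of the largest isoform. The others were the exons of 15, 48, 42 and 3 nt that together form the muscle-specific domain. The last of these, at chr9:49531974-49531976, adds the same triplet as the listed acceptor but as an exon of its own.
Ncam1, exon of 3 nt, not listed: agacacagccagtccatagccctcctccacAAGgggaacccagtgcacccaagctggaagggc

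Nrcam, of the L1 family of adhesion molecules, had a cassette exon of 30 nt at chr12:44566840-44566869 (plus strand), exon 18 of 31 in Nrcam-201. It adds 10 residues between codons 629 and 639 of 1256, in the extracellular part, and neither replaces a neighbour nor brings a stop. Its upstream intron measured 427 nt, with 59 of the 391 listed exons (15.1%) having a shorter one, and its downstream intron measured 1674 nt, with 171 (43.7%) having a shorter one. Of the members Nrcam had most annotated cassette exons and acceptor pairs, 11 in all, of which 10 were not listed, including coding cassette exons of 18, 57, 36 and 12 nt. No annotated transcript pair of Nrcam differed in its coding sequence by the 30 nt alone.

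Scrib had the longest of the events, a cassette exon of 84 nt, exon 29 of 38 in Scrib-201. It adds 28 whole codons, from 1290 to 1317 of 1665, in the carboxy-terminal region behind the last PDZ domain. The introns around it were short, with 509 nt before it and 155 nt after it. Of 391 listed exons 71 (18.2%) had a shorter upstream intron and 16 (4.09%) a shorter downstream one. Scrib-203 had the same coding sequence without it. Unlike the Src and Nrcam exons it was not short for a listed exon, since 235 of 439 (53.5%) were shorter. Scrib had 3 further annotated alternatives, cassette exons of 75 and 63 nt and an acceptor shift of 22 nt, and 0 of them were listed.

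**Figure D2:**
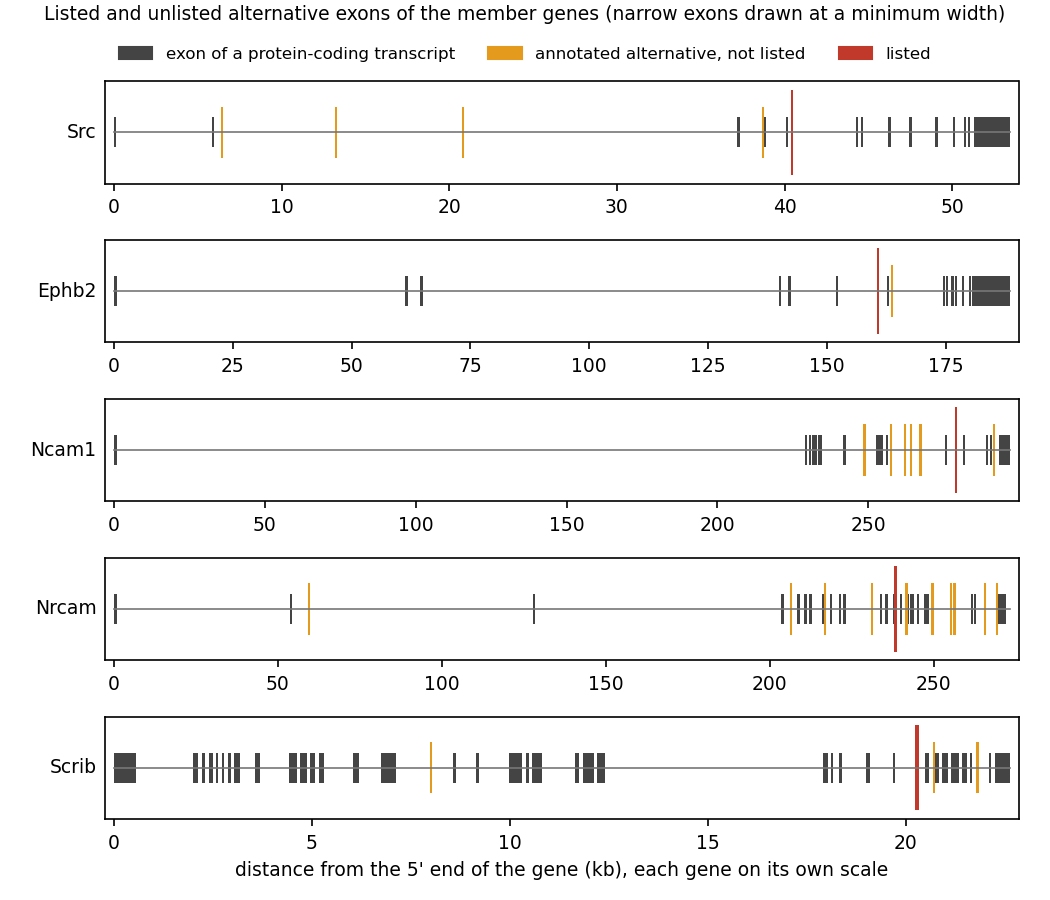
Exons of each member gene along its length, in kb from the 5′ end of the gene and with a separate scale for each panel; dark grey bars are exons of protein-coding transcripts (the narrowest widened to be seen), orange bars annotated cassette exons and acceptor pairs that were not listed, and red bars the listed event. Each panel has 1 red bar, and the number of orange bars runs from 1 in Ephb2 to 10 in Nrcam.

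All 5 events had a length divisible by 3, which the rule did not ask for. The members were, however, chosen with earlier results of these data known, so this count is not independent of that choice. Over all listed events 393 of 643 (61.1%) had such a length, as did 270 of 439 cassette exons (61.5%) and 73 of 97 acceptor shifts (75.3%). The property was common among the unlisted choices of these genes too. The genes held 22 annotated coding cassette exons and acceptor pairs, of which 21 had a length divisible by 3, and 16 of the 17 that were not listed did so. The exception was the 22-nt acceptor shift of Scrib. Over coding and noncoding choices together the 5 genes had 29 annotated alternatives, 23 cassette exons and 6 acceptor pairs, and 5 were listed, 1 in each gene. As the genes were chosen by being listed, at least 1 in each was fixed by that choice. Of all 26850 annotated cassette exons 362 (1.35%) were listed. That share counts no acceptor pairs and no such choice lies behind it, so the 5 of 29 are not to be compared with it.

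The Src and Nrcam exons belong to the short exons of the lists, taken here as 30 nt or less. Of 439 listed cassette exons 61 (13.9%) were that short, against 1181 of 26850 annotated ones (4.40%), and the medians were 81 nt and 109 nt. The sets were not defined alike. The annotated ones lie within an intron of another transcript, and 362 of them were listed, beside 439 listed cassette exons in all. Of the annotated short exons 56 (4.74%) were listed. All but 1 of the 61 had a length divisible by 3 (98.4%), against 814 of 1181 annotated short exons (68.9%). Neither of these sets was limited to coding exons, and how many in each were coding was not counted. In at least 2 lists stood 18 of the 61 short exons (29.5%) and 71 of the 378 longer ones (18.8%).

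**Figure D3:**
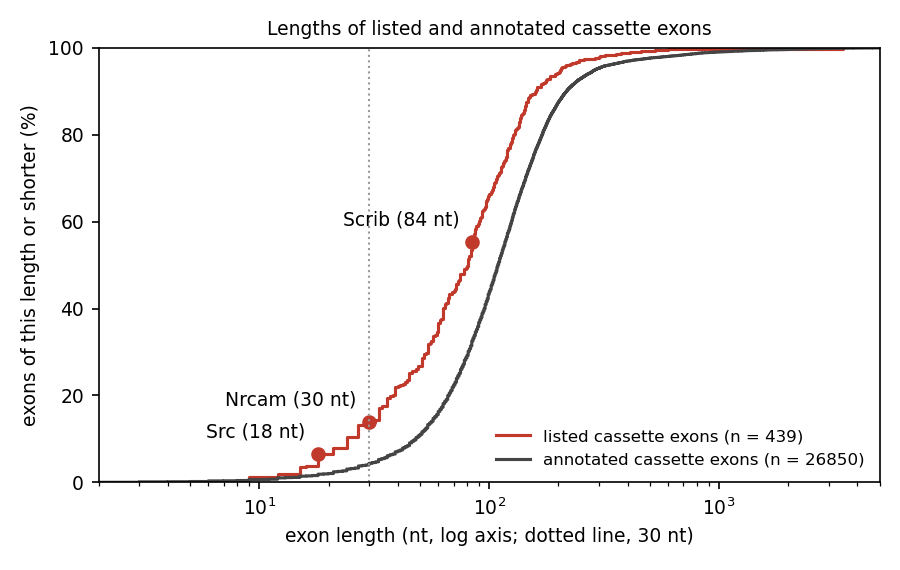
Cumulative share of cassette exons (per cent) by length (nt, log axis) for the 439 listed exons in red and the 26850 annotated ones in grey; points mark Src, Nrcam and Scrib on the red curve and the dotted line 30 nt. Src and Nrcam lie at or left of the dotted line, Scrib near the median, and the red curve runs above the grey one over these lengths. The sets were not defined alike.

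The exons most like that of Src, short and in lists 1 and 3 but not list 2, were 8 in number. They were those of Madd (9 nt), which makes an exchange factor for Rab3, Iffo1 (9 nt), Rapgef6 (15 nt), an exchange factor for Rap GTPases, Sh3glb2 (15 nt), of the endophilin B family, Camta2 (21 nt), Tmem184b (21 nt), Trappc9 (27 nt) and the presynaptic adhesion gene Nrxn2 (27 nt). Nrxn2 had a second short exon, of 24 nt, in lists 2 and 3, as had Nav1 (24 nt) and Gatad2a (16 nt, an event that matched no annotated exon). Exoc1 (21 nt), of the exocyst, and Mtss1 (12 nt), a membrane-bending protein, had theirs in lists 1 and 2. Short exons of the formin gene Daam1 (27 nt), of Mark2 (27 nt), which makes a kinase of the Par-1 polarity family, of the SNARE gene Vti1a (21 nt) and of 6430548M08Rik (30 nt) were in all 3 lists, where that of Src was in 2.

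The Ephb2 and Ncam1 choices are tandem acceptors, pairs of sites 3 nt apart, where the bases between the sites as a rule end in AG themselves. Such events made up 36 of 97 listed acceptor shifts (37.1%), and 7 of the 36 (19.4%) were in at least 2 lists. Both sites were annotated in 33 of them, and these were 2.78% of the 1187 annotated pairs of this spacing. The optional triplet read CAG in 26 of the 33, as in Ephb2, TAG in 4, AAG in 2, as in Ncam1, and ATG in the remaining 1. The tandem acceptors most like that of Ephb2, in lists 1 and 2, were those of Cpeb1, which makes a regulator of cytoplasmic polyadenylation, and Mgrn1, which makes a ubiquitin ligase. Those of Rbmx and Uqcc1 were in lists 2 and 3, that of Taz was in lists 1 and 3, and that of Tank was in all 3. A choice of 3 nt can be told only by reads that cross the junction, and how many did so is not known here.

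Sets of related genes place the members among those they work with, 4 by role and 1 of regulators of neural and short exons. Of 50 adhesion molecules 11 had a listed event, and of the 48 other than Ncam1 and Nrcam 9 had one (18.8%), beside 2.79% of all multi-exon protein-coding genes. These genes have many annotated choices, and counted by exon 9 of the 169 annotated cassette exons of the 48 genes (5.33%) were listed, beside 1.35% of all. The share rests in part on list 2, without which 7 of the 50 genes had an event. Whether P19 cells express these genes was not measured here, and the counts are given with no test. All the gene sets were drawn up with earlier results of these data known. The shares here and below therefore cannot be told apart from that choice.

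The 9 genes had 12 listed cassette exons, counting those with no annotated transcript that skips them, 6 of them of 30 nt or less and 10 of a length divisible by 3. Nfasc, of the same L1 family as Nrcam, had an exon of 15 nt in list 3. The receptor phosphatase gene Ptprd had one of 12 nt in list 1, and its relative Ptprs had exons of 145 and 600 nt in list 2. The latrophilin gene Adgrl3 had exons of 18 nt in list 1 and 27 nt in list 3, and Adgrl2 had one of 39 nt in list 1. Cadm1 (54 nt) and the Slit receptor gene Robo2 (126 nt) were in list 2, and Nectin3 (139 nt) was in list 1. Nrxn2, with the exons of 27 nt and 24 nt named above, was the only gene of the 50 with the same event in more than 1 list.

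The other sets held fewer listed genes. Of 32 Src family kinases, their regulators and substrates 3 had an event, namely Src, Yes1 with a donor shift of 462 nt in list 1 and the kinase gene Abl1 with an exon of 205 nt in list 2. Without Src this was 2 of 31 genes (6.45%), and 1 of their 67 annotated cassette exons (1.49%) was listed. Of 22 Eph receptors and ephrins the other one was Ephb4, with an acceptor shift of 27 nt in list 2, which made 1 of 21 genes without Ephb2 (4.76%), and 0 of their 26 annotated cassette exons were listed. Of 28 polarity and junction genes the other one was Arhgef7, which makes the exchange factor beta-Pix, a known partner of Scrib, with an exon of 177 nt in list 3, and without list 3 neither was listed. Without Scrib this was 1 of 27 genes (3.70%) and 1 of their 73 annotated cassette exons (1.37%). Among 20 regulators of neural and short exons, Celf2 had an acceptor shift of 18 nt in list 1, and Elavl2 had an acceptor shift of 3 nt in list 1 and an exon of 39 nt in list 3, and 1 of the 68 annotated cassette exons of these genes (1.47%) was listed. By gene these shares stood above the 2.79% of all multi-exon protein-coding genes, and by exon they stood near the 1.35% of all annotated cassette exons or, for the Eph genes, at 0. For the 20 regulators the share by gene was 10%, beside 2.79% of all multi-exon protein-coding genes, and it rested on 2 genes. Ptbp1, Ptbp2 and Srrm4, named after the lists were seen, were among those with none, and nothing is read from this.

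**Figure D4:**
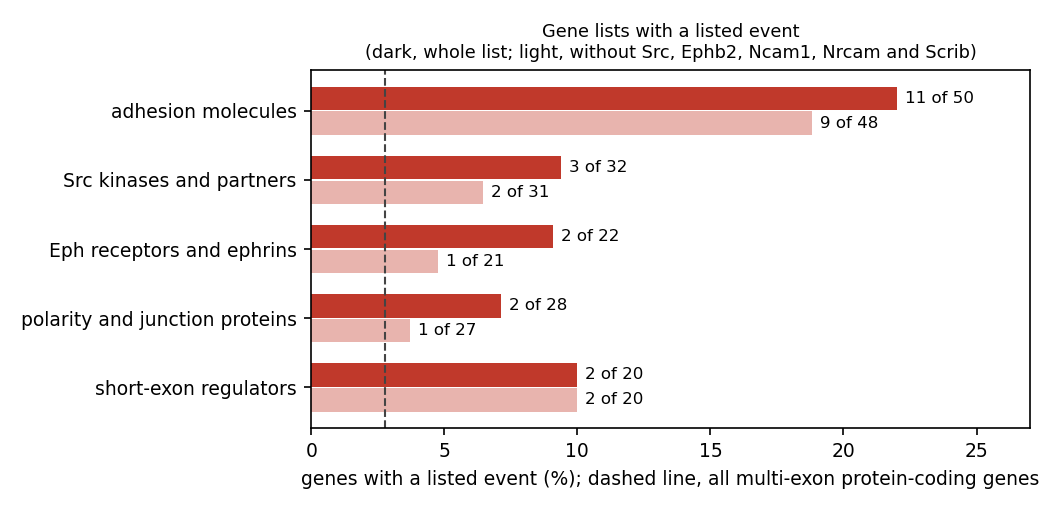
Share of genes with a listed event (per cent) in 5 gene lists; dark bars give the whole list, light bars the list without the 5 member genes, the numbers at the bars the counts, and the dashed line the 2.79% of all multi-exon protein-coding genes. The longest bars are those of the adhesion molecules, with 11 of 50 and 9 of 48 genes. The lists were drawn up with earlier results of these data known.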

How the data were processed

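Paired-end RNA-seq of 3 control and 3 SFPQ knockdown samples of P19 cells was processed by the authors, whose processing notes name cutadapt, STAR, Bowtie2 and mm10 without versions and whose methods name SpliceTrap, which estimates exon inclusion. The authors deposited positions and event types in 3 lists of 275, 269 and 262 lines. Repeated lines were counted once, and 2 lines with an unreadable coordinate were left out. Starts count from 0, since 433 of 439 cassette events matched an exon of GENCODE M21 with 1 added and 0 as given. An event was assigned to the gene whose edges it matched (622 of 643), otherwise to a gene that held it, protein-coding genes first. A cassette exon in the annotation is an internal exon of one transcript within an intron of another, and an acceptor pair is reached from 1 donor. Transcript sequences and reading frames came from GENCODE M21, and assignment was tested on simulated data. The sequence of the Scrib event is not reported here. The members and gene lists were chosen with earlier results of these data known. Named genes were the members, listed genes of the gene lists, and genes with a cassette exon of 30 nt or less or a 3-nt acceptor shift in at least 2 lists. Ptbp1, Ptbp2 and Srrm4 fell outside this rule and were added after the lists were seen. No test was run, as the members were selected on the lists. Splice site scores and intron motifs in the planned design were left out, since no genome sequence was used here. The tables held 0 unused columns of values per sample. Python 3.11.15, numpy 2.4.6 and matplotlib 3.10.9 were used.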

Additional observations from a re-analysis of the deposited data

How the results depend on the processing

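The count of 5 member events and 5 member genes depended on how lists were combined. Requiring at least 2 lists gave 2 events in 2 genes, and leaving out 1 list at a time gave 3 to 5 of each, the lowest without list 3. With the start taken as given, 0 events matched, and with any overlap with the locus all 5 did. The 20 genes of the 5 gene lists with an event fell to 3 when at least 2 lists were required and ranged from 14 to 16 when 1 list was left out. For single gene lists, under at least 2 lists the adhesion molecules went from 11 to 1, the Src family list from 3 to 1, the Eph list from 2 to 1, and the polarity genes and the regulators of neural and short exons each from 2 to 0. Leaving out list 2 gave 7 adhesion and 1 Eph gene, leaving out list 3 gave 0 polarity genes, and leaving out list 1 gave 1 regulator. Counting protein-coding transcripts only, the member genes had 19 annotated alternatives in place of 29, and the same 5 were listed. No paired analysis was possible because the deposited lists hold no values per sample. Splice site scores and motif counts in introns were planned and not run, since no genome sequence was used here. With no read counts, how depth limits these lists cannot be stated.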

Other observations

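Short cassette exons recurred unevenly between the lists, a pattern noticed after the values were seen and not tested. Of the 61 exons of 30 nt or less, 9 (14.8%), that of Src among them, were in exactly lists 1 and 3, 2 (3.28%) in exactly lists 1 and 2, and 3 (4.92%) in exactly lists 2 and 3. Over all 643 events these shares were 5.44%, 5.44% and 5.29%. The 3-nt acceptor shifts did not share that order, with 1 of 36 in exactly lists 1 and 3, 3 (that of Ephb2 among them) in exactly lists 1 and 2, and 2 in exactly lists 2 and 3.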
